A study of Mus musculus with 36 samples.

Results

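Proteins that carry or bind calcium in the heart muscle cell, or regulate its movement, are encoded by the 8 genes described here. These genes are Atp2a2, Pln, Ryr2, Casq2, Slc8a1, Cacna1c, Sri and Asph. They were chosen by name, through the probe sets that the platform annotation gives to the single gene symbol, and make up 8 of the 12393 genes named on the array. All 8 were measured, by 21 of the 20380 probe sets with 1 symbol: 5 for Asph, 4 for Atp2a2, 3 each for Pln and Slc8a1, 2 each for Ryr2 and Sri, and 1 each for Casq2 and Cacna1c. The values of a gene's probe sets were averaged. The choice was made with earlier results of these data known, so counts among these genes, set beside the share of all genes, are descriptions.

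The left ventricles came from 36 mice, 1 expression array each. Transverse aortic constriction (TAC), which narrows the aorta and loads the ventricle with pressure, had been done in 18 mice, and a SHAM operation in the other 18. All animals lived for 8 weeks after the operation and were killed at ZT03, ZT07, ZT11, ZT15, ZT19 or ZT23, with 3 mice (biological replicates, per the labels) for every pairing of operation and time, 12 groups in all. Strain, age, sex, light schedule and the load measured on each heart are not stated by the labels.

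With each heartbeat, calcium entering through the L-type channel of the surface membrane opens the ryanodine receptor of the sarcoplasmic reticulum, the internal calcium store, and the released calcium drives contraction. The store is refilled by the pump SERCA2, and the sodium-calcium exchanger carries the rest out of the cell. In pressure overload the ventricle also turns on genes of the fetal heart, and Myh7, the beta myosin heavy chain, is the usual marker of that programme in mice.

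The deposited values were centred separately for the 2 surgeries, so that the median of each probe set is 0 in SHAM (18 arrays) and again in TAC (18 arrays). No gene can therefore be called higher or lower after TAC, and whether a gene or a marker of heart muscle is present cannot be read from its level. Values are given as log2 relative to the median of the same surgery, the base of the logarithm being taken as 2. What remains measurable is the course over the day, the relation to Myh7 between mice and the spread between mice. A value in whole ventricle cannot tell fewer cells of a type from less RNA per cell. SHAM ZT11 replicate 3 stood apart for thymocyte markers (mean 2.43) and TAC ZT23 replicate 1 for airway markers (mean 1.28). Means of other marker lists also lay beyond 1 from the median. White adipocyte means were 1.25 on the same SHAM array and 1.26, 1.17 and 1.09 on TAC ZT11 replicate 3, TAC ZT15 replicate 3 and TAC ZT19 replicate 2. Atrial means were -1.04 on SHAM ZT07 replicate 2 and -1.05 and -1.08 on TAC ZT23 replicates 2 and 3, and activated fibroblast means were 1.07, 1.16 and 1.25 on TAC ZT11 replicates 2 and 3 and TAC ZT23 replicate 1. Precision is limited by the small number of arrays.

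Among TAC hearts, Atp2a2 and Pln were lower, and Casq2 and Sri higher, where Myh7 was higher. Myh7, measured by 1 probe set, ranged from -1.95 to 1.62 around a median of 0.00 over the 18 TAC arrays, and from -0.38 to 0.33 over the 18 SHAM arrays. All 3 mice of TAC ZT23 lay high (1.54, 1.62 and 0.96), whereas those of TAC ZT03 (-1.70, -0.54 and 0.32) and TAC ZT11 (-0.32, 1.17 and 0.75) lay far apart. A slope on Myh7 passed the limma test at an adjusted p under 0.05 for 4 of the 8 genes, 2 in each direction. Of all 12392 genes other than Myh7, 6.42% passed, 3.41% with a positive and 3.01% with a negative slope. An unadjusted p under 0.05 was found for 5 of the 8, against 20.2%. The median slope of the 8 genes was -0.023 and that of all genes -0.0090.

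Atp2a2 encodes SERCA2, the pump that returns calcium to the store. Its lowest, median and highest TAC values were -0.31, 0.020 and 0.26. The lowest was TAC ZT11 replicate 2, with Myh7 at 1.17, and the 2 highest were TAC ZT19 replicate 2 (0.26) and TAC ZT03 replicate 1 (0.22), with Myh7 at -1.44 and -1.70. The slope was -0.082 ± 0.021 (SE, n = 18) per log2 unit of Myh7, with a 95% interval of -0.13 to -0.038 and an adjusted p of 0.0238. The correlation was r = -0.69 (permutation p = 0.00138, adjusted 0.0320) and rho = -0.66 (permutation p = 0.00378, adjusted 0.0740), both two-sided and adjusted over 12392 genes. Without the 2 arrays farthest from the median of Myh7, TAC ZT03 replicate 1 and TAC ZT15 replicate 3, r was -0.64 (n = 16).

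Pln encodes phospholamban, the small membrane protein that restrains SERCA2 until it is phosphorylated. Its TAC values covered only -0.15 to 0.098 around a median of -0.0020, and the 5 lowest were 2 hearts of TAC ZT23, 2 of TAC ZT11 and TAC ZT19 replicate 1. The slope was -0.054 ± 0.015 (SE, n = 18), with an interval of -0.085 to -0.023 and an adjusted p of 0.0327. With r = -0.72 (permutation p = 8.3e-04, adjusted 0.0239) and rho = -0.76 (permutation p = 4.6e-04, adjusted 0.0198), Pln was the only gene of the 8 whose relation passed by slope, r and rho. It stayed at r = -0.74 without the 2 farthest arrays.

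Pump and brake thus moved in the same direction between TAC hearts. The difference of Atp2a2 minus Pln, a relative measure within an array, ran from -0.20 to 0.22 over the TAC arrays and from -0.15 to 0.093 over the SHAM arrays. Its correlation with Myh7, given as a description over 18 arrays each, was -0.30 in TAC and -0.68 in SHAM.

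Sri encodes sorcin, a calcium-binding protein that damps the opening of the ryanodine receptor. The TAC values of Sri ran from -0.49 (TAC ZT03 replicate 1) over a median of -0.0070 to 0.44 (TAC ZT23 replicate 1), against -0.069 to 0.11 in SHAM. Its slope was 0.12 ± 0.033 (SE, n = 18), with an interval of 0.048 to 0.19 and an adjusted p of 0.0370. The correlation of r = 0.63 did not pass by permutation (p = 0.00408, adjusted 0.0616), nor did rho = 0.62 (permutation p = 0.00655, adjusted 0.102). Without the 2 farthest arrays r was 0.55.

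Casq2 encodes cardiac calsequestrin, which binds calcium inside the store next to the release channel. Its 2 highest TAC values, around a median of 0.00, were those of TAC ZT23 replicate 1 (0.33) and replicate 2 (0.21), and its lowest was TAC ZT15 replicate 3 (-0.14), the array with the lowest Myh7. The slope was 0.072 ± 0.021 (SE, n = 18), with an interval of 0.029 to 0.12 and an adjusted p of 0.0416. The correlation was r = 0.65 (permutation p = 0.00280, adjusted 0.0497) and rho = 0.62 (permutation p = 0.00723, adjusted 0.109), with r = 0.54 without the 2 farthest arrays.

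The other 4 genes did not pass. Slc8a1, the sodium-calcium exchanger NCX1, had a slope of 0.060 ± 0.021 (adjusted p = 0.102) with an interval of 0.016 to 0.10. Cacna1c, the pore of the L-type calcium channel, had -0.042 ± 0.027 (adjusted p = 0.401), with an interval of -0.098 to 0.013. Asph, whose transcripts encode both an aspartyl hydroxylase and junctin, the protein that ties calsequestrin to the release channel, had -0.035 ± 0.027 (adjusted p = 0.510), with an interval of -0.091 to 0.021. Ryr2, the cardiac ryanodine receptor, had -0.011 ± 0.055 (adjusted p = 0.947), and its interval of -0.12 to 0.10 includes the slopes of Atp2a2 and Casq2.

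**Figure D1:**
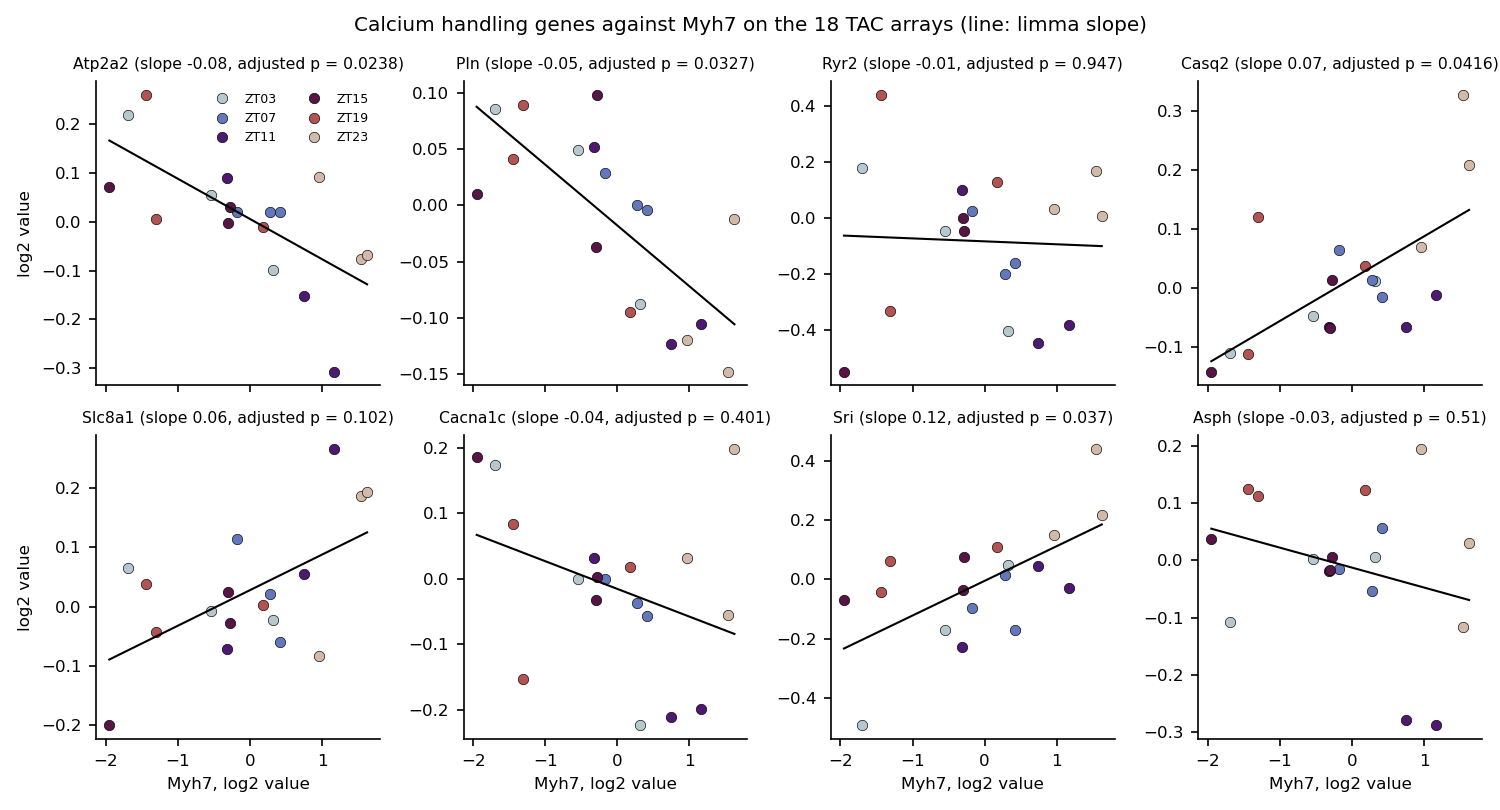
Log2 value of each of the 8 genes (vertical axes, each with its own range) against the log2 value of Myh7 (horizontal axes) on the 18 TAC arrays, 1 point per mouse, coloured by time of day, with the fitted limma slope as a line. Points fall from left to right for Atp2a2 (slope -0.08) and Pln (slope -0.05) and climb for Casq2 (slope 0.07) and Sri (slope 0.12), and the 3 TAC ZT23 hearts lie at the right.

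Markers of fibroblasts and of atria moved with Myh7 on the same arrays. The other lists of the 11 did not pass by permutation of r, adjusted over the lists, with r from -0.49 for cardiomyocyte to 0.35 for airway markers. The mean of the 8 measured of 8 fibroblast markers ranged from -0.48 to 0.63 in TAC (-0.21 to 0.21 in SHAM) and correlated with Myh7 at r = 0.90 over the 18 TAC arrays (permutation p adjusted over 11 marker lists 5.5e-05). For 5 measured of 7 activated fibroblast markers the range was -0.77 to 1.25 (-0.14 to 0.20 in SHAM), with r = 0.94. The 6 atrial markers, whose mean ran from -1.08 to 0.64 in TAC (-1.04 to 0.28 in SHAM), gave r = -0.59 (adjusted p = 0.0325, permutation), and the 11 cardiomyocyte markers, from -0.14 to 0.066 (-0.052 to 0.062 in SHAM), gave r = -0.49 (adjusted p = 0.113, permutation). Among the 8 genes, Pln correlated with the activated fibroblast mean at r = -0.86 and Atp2a2 with the cardiomyocyte mean at r = 0.91 in TAC (-0.55 and -0.05 in SHAM). Values against these means are descriptions over arrays that share their RNA.

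With the fibroblast mean as a covariate, the slope of Pln was 0.0031, that of Atp2a2 -0.064, that of Sri 0.064 and that of Casq2 0.11 (adjusted p = 0.9999 for each). With the activated fibroblast mean, Pln was at 0.058, Atp2a2 at 0.0015, Sri at 0.021 and Casq2 at 0.11 (adjusted p between 0.857 and 0.997). With either covariate 0 of all genes passed in limma, and 522 and 752 genes had an unadjusted p under 0.05, against 2508 without a covariate. With the cardiomyocyte mean, Casq2 alone passed (slope 0.087, adjusted p = 0.0333), and Atp2a2 was at -0.039 (adjusted p = 0.125). Atp2a2 and Pln kept passing with the atrial mean (-0.11 and -0.067, adjusted p = 0.0176 and 0.0470). Since the fibroblast and activated fibroblast means correlated with Myh7 at r = 0.90 and 0.94, a slope on Myh7 beside either mean cannot be told apart well from it. What share of the relation belongs to the makeup of the tissue was not tested.

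Within the times of day, 0 of the 8 genes passed, against 1.42% of all genes, and 4 had an unadjusted p under 0.05 in limma, against 12.3%. The within-time slope of Atp2a2 was -0.13 ± 0.032 (adjusted p = 0.0576) and that of Sri 0.14 ± 0.039 (adjusted p = 0.0946). Cacna1c followed with -0.11 ± 0.038 (adjusted p = 0.215) and Pln with -0.061 ± 0.027 (adjusted p = 0.371), while Casq2 was at 0.054 ± 0.030 (adjusted p = 0.517). Each of these 5 slopes had the sign of the slope over all TAC arrays.

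The count of 4 depended on single arrays and on the scaling. Without TAC ZT03 replicate 1, Slc8a1 alone passed (adjusted p = 0.0465) and Atp2a2, Pln, Casq2 and Sri had 0.0613, 0.0593, 0.0681 and 0.117. Without TAC ZT23 replicate 1, the array with the airway markers, Atp2a2 alone passed, and Pln, Casq2 and Sri had 0.0951, 0.15 and 0.136. Without TAC ZT19 replicate 2, TAC ZT23 replicate 2 or TAC ZT23 replicate 3 the count was 2. Pln also fell short without TAC ZT11 replicate 3 (0.0540) and TAC ZT19 replicate 3 (0.0614), and Casq2 passed in only 5 of the 18 fits, those without TAC ZT07 replicates 1 or 3, TAC ZT11 replicates 2 or 3 or TAC ZT19 replicate 3. Quantile normalization left 0 of the 8 genes, as did leaving out all arrays with replicate number 1 or all with number 2. Of all genes, 265, 372 and 456 passed in these 3 fits, against 796 in the main fit. Without TAC ZT03 replicate 1 or TAC ZT23 replicate 1, 800 and 554 of all genes passed.

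In SHAM hearts 0 of the 8 genes had a slope that passed (0.468% of all genes did), and 1, Casq2, had an unadjusted p under 0.05 in limma, against 10.6%. By permutation of r, 0 of the 8 passed in SHAM, and 0 of all 12392 genes did (10.2% had an unadjusted p under 0.05). By permutation of rho, 0 of 8 passed (0.0242% of all genes did), and 3 of 8 had an unadjusted p under 0.05, against 11.8%. Those were Slc8a1 with rho = -0.63 (permutation p = 0.00573, adjusted over all genes 0.184), Casq2 with rho = -0.61 (permutation p = 0.00861, adjusted 0.212) and Asph with rho = -0.58 (permutation p = 0.0137, adjusted 0.251). Pearson's r was -0.41, -0.49 and -0.43 (permutation p = 0.0887, 0.0405 and 0.0781). Without SHAM ZT07 replicate 2 and SHAM ZT19 replicate 3, the arrays farthest from the median of Myh7, rho was -0.57, -0.52 and -0.48 and r was -0.32, -0.34 and -0.35 (n = 16). The slopes had wide errors: Casq2 had -0.28 ± 0.12 (SE, n = 18), Slc8a1 -0.22 ± 0.12, Pln 0.13 ± 0.093, Atp2a2 -0.11 ± 0.098 and Sri -0.0028 ± 0.076. The difference of the slopes between the surgeries passed for 0 of 8 genes (0.282% of all genes). It had an unadjusted p under 0.05 for Casq2, Slc8a1 and Pln, 3 of 8 against 8.71%. The sizes were 0.35 ± 0.12 for Casq2 (adjusted p = 0.268), 0.28 ± 0.12 for Slc8a1 (adjusted p = 0.461) and -0.19 ± 0.088 for Pln (adjusted p = 0.524), each as TAC minus SHAM.

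The sequence upstream of the transcript start is shown for the genes whose slope passed and for which the RefSeq promoter table holds an entry, Pln, Casq2 and Sri, so that the letters shared or not shared by genes that moved with Myh7 can be seen. Each is the 250 bases before the start on the + strand of GRCm38.p6, 5′ to 3′, and capitals mark motif matches on either strand. The motifs searched were the promoter element known as the TATA box, with the letters TATAAA, and the GC box bound by Sp1, with the letters GGGCGG. From muscle gene promoters came the MCAT motif of TEAD factors, with the letters CATTCC, and the motif of GATA factors, with the letters AGATAA. The last was the E-box of helix-loop-helix factors, written CANNTG, whose form CACGTG, overlapping it by construction, is that used by the clock. For Pln the window is chr10:53337436-53337685, for Casq2 chr3:102086165-102086414 and for Sri chr5:8045828-8046077.
Pln: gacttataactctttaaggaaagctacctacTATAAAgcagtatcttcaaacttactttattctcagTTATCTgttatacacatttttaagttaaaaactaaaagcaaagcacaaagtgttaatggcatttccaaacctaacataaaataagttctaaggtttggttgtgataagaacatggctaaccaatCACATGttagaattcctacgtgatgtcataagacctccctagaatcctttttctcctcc
Casq2: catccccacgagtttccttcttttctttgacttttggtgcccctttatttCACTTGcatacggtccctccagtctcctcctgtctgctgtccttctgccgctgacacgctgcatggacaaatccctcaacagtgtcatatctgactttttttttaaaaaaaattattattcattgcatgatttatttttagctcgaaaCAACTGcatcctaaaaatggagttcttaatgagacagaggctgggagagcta
Sri: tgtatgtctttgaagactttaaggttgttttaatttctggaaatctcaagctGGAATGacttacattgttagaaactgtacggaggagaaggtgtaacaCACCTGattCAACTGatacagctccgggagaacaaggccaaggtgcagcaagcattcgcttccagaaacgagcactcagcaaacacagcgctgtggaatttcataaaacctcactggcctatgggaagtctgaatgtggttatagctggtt

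All 3 windows hold an E-box, as do 66.2% of the 32851 windows of this length in the table. So does every window of Ryr2, Slc8a1 and Cacna1c, whose slopes did not pass, and that of Slc8a1 also has a GATA match at -68. Pln, which was lower where Myh7 was higher, has its E-box at position -59 (the base before the start being -1), a TATA box match at -219 (12.4% of windows) and a GATA match at -183 (10% of windows). Casq2 has E-boxes at -200 and -52. Sri has a MCAT match at -198 (12.6% of windows) and E-boxes at -151 and -142. None of the 3 printed windows holds the clock E-box (6.0% of windows) or the GC box (32.7%) in these letters. The GC content of Pln, Casq2 and Sri was 32.8%, 41.6% and 43.6%, against a median of 52.4%. A match is a description of the letters, and binding was not measured.

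Probe sets of 1 gene did not always move together, which matters most for Slc8a1, Ryr2 and Asph. Of the 21 probe sets, 5 had a slope on Myh7 that passed over all probe sets, of which 5.48% passed. They were 1452363_a_at (slope -0.060, adjusted p = 0.0198) and 1427250_at (-0.11, adjusted p = 0.0426) for Atp2a2, 1460332_at for Pln (-0.076, adjusted p = 0.0166), 1423155_at for Sri (0.11, adjusted p = 0.0393) and 1425817_a_at for Slc8a1 (0.17 ± 0.032, adjusted p = 0.00304). The other probe sets of Slc8a1 lay near 0, with slopes of 0.0043 and 0.0089, and their correlation with 1425817_a_at over the 36 arrays was 0.06 and 0.25. In TAC, 1425817_a_at changed over the 6 times (adjusted p = 0.0190) and was highest at ZT23, at 0.41 ± 0.26 (SD, n = 3), and lowest at ZT15, at -0.15 ± 0.26.

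For Atp2a2, all 4 probe sets had negative slopes, from -0.026 to -0.14, and all pairs correlated at 0.55 or above over the 36 arrays. All 3 probe sets of Pln had negative slopes, from -0.039 to -0.076, and both of Sri had positive slopes, 0.11 and 0.13. The 2 probe sets of Sri correlated at 0.83 in TAC and -0.31 in SHAM. The 2 probe sets of Ryr2 had slopes of opposite sign, 0.10 ± 0.092 for 1421126_at (adjusted p = 0.597) and -0.12 ± 0.039 for 1450123_at (adjusted p = 0.0701). Their correlation was 0.19 over the 36 arrays, 0.70 in SHAM and 0.07 in TAC, and 1421126_at reached -1.44 on 1 TAC array. Within times, 1450123_at of Ryr2 passed with -0.24 ± 0.044 (adjusted p = 0.0143), as did 1427251_at of Atp2a2 with -0.30 ± 0.061 (adjusted p = 0.0256), against 1.11% of all probe sets. The mean over probe sets given for Ryr2 thus averages 2 unlike measurements.

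**Figure D2:**
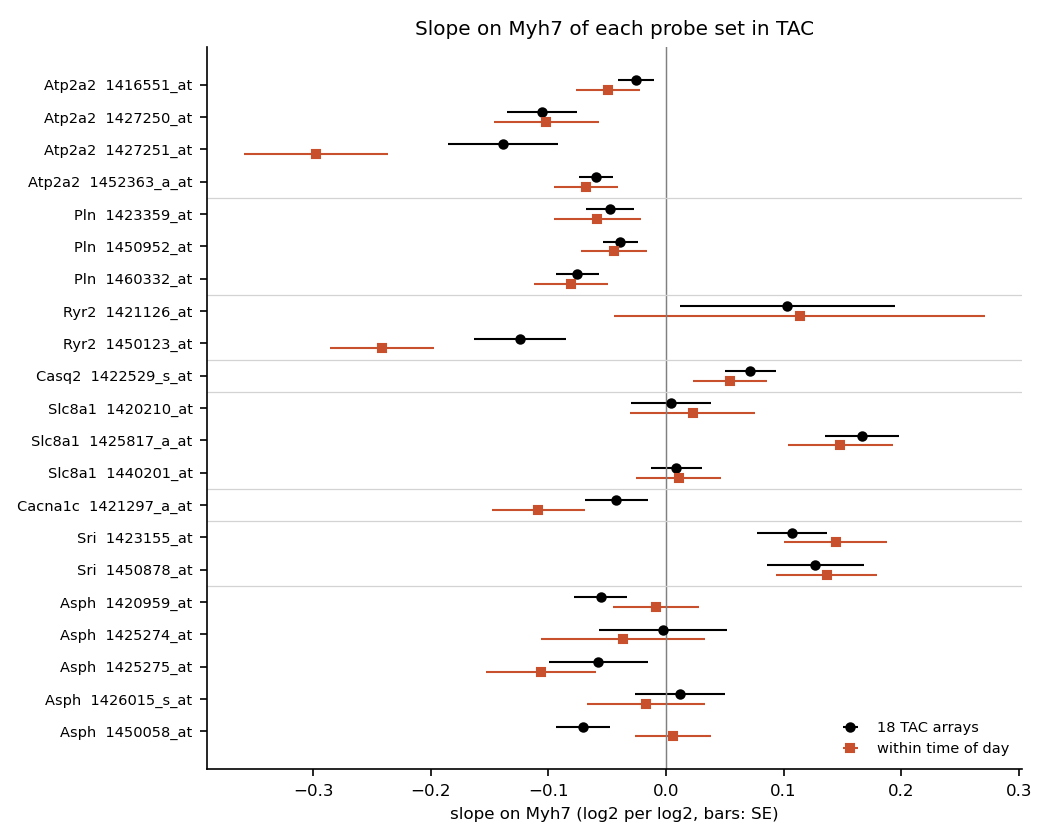
Slope on Myh7 (horizontal axis, log2 per log2) with its SE for each of the 21 probe sets, over the 18 TAC arrays (black circles) and within the times of day (red squares). All 4 Atp2a2 and all 3 Pln probe sets lie left of 0, both Sri probe sets lie right, and 1 of the 3 Slc8a1 probe sets, at 0.17, stands clear of the remaining ones.

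Over the day, none of the 8 genes had a 24-h rhythm that passed in limma, in SHAM (0 of 8, against 5.58% of all genes) or in TAC (0 of 8, against 4.35%). At an unadjusted p under 0.05 there were 2 genes in SHAM (18.8% of all genes) and 3 in TAC (19.8%). The nearest in SHAM was Casq2, whose fitted curve peaked at ZT21.6 with an amplitude, from mean to peak, of 0.11 ± 0.030 (SE, n = 18) (adjusted p = 0.0688). In TAC it was Asph, peaking at ZT21.1 with 0.10 ± 0.028 (adjusted p = 0.0701), followed by Sri with 0.14 ± 0.042 peaking at ZT20.2 (adjusted p = 0.114). The upper 95% limit of the amplitude was 0.14 or less for Pln, Slc8a1, Cacna1c and Atp2a2 in both surgeries, and 0.24 in SHAM and 0.29 in TAC for Ryr2. These limits hold for the mean over probe sets, and single probe sets had wider ones. In SHAM and TAC they were 0.20 and 0.26 for 1425817_a_at of Slc8a1, and 0.27 and 0.25 for 1427251_at of Atp2a2. For 1421126_at of Ryr2 they were 0.38 and 0.44. The difference of rhythm between the surgeries passed for 0 of 8 genes (0.0484% of all), and 0 of 8 had an unadjusted p under 0.05 in limma (6.27%).

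Casq2 in SHAM had values of 0.050, 0.17 and 0.049 at ZT19 and of -0.057, -0.24 and -0.068 at ZT07. These groups did not overlap. Asph followed a like course in SHAM, at 0.078 ± 0.066 (SD, n = 3) at ZT23 and -0.072 ± 0.075 at ZT11, with a rhythm amplitude of 0.082 ± 0.028 (adjusted p = 0.179). In fits of the 18 SHAM arrays alone both passed, with adjusted p-values of 0.0228 and 0.0229. Of all genes, 1166 passed there, against 692 in the main fit. Casq2 in SHAM also passed without TAC ZT03 replicate 1 (0.0479) or TAC ZT23 replicate 1 (0.0310), arrays that enter only the shared spread. Then 734 and 754 of all genes passed. Asph in TAC passed without TAC ZT07 replicate 1 (0.0272) or TAC ZT23 replicate 1 (0.0121), and Sri in TAC without TAC ZT03 replicate 1 (0.0234). In these fits 552, 618 and 549 of all genes had a TAC rhythm that passed, against 539 in the main fit.

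A change of any shape over the 6 times passed in TAC for 2 of the 8 genes, Sri and Asph, against 5.26% of all genes, and in SHAM for 0 of 8, against 3.37%. At an unadjusted p under 0.05 there were 3 in TAC, with Casq2, against 20.3%. In SHAM 1 gene, Casq2, had an unadjusted p under 0.05 in limma, against 13.2%. In TAC, Sri was at 0.44, 0.22 and 0.15 in the mice of ZT23 and at -0.49, -0.17 and 0.047 in those of ZT03. The means were 0.27 ± 0.15 and -0.21 ± 0.27 (SD, n = 3), the groups did not overlap, and the adjusted p was 0.0160. Asph, at 0.12, 0.13 and 0.11 at ZT19 and -0.019, -0.29 and -0.28 at ZT11, had an adjusted p of 0.0397. These groups too did not overlap, and 2 of the 3 mice of ZT11 made the low point. Casq2 was next, with 0.20 ± 0.13 at ZT23 and -0.065 ± 0.078 at ZT15 (adjusted p = 0.0672).

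The difference of the time courses between TAC and SHAM passed for 0 of 8 genes (0.0161% of all). Sri had an unadjusted p of 0.0137 and an adjusted p of 0.623 in limma, 1 of 8 under 0.05 against 5.57%. In the 18 TAC arrays alone, neither Sri (adjusted p = 0.256, unadjusted 0.0129) nor Asph (adjusted p = 0.303, unadjusted 0.0206) passed in limma. The test used 1 estimate of the spread for both surgeries, and the SD of Sri within groups was 0.056 in SHAM and 0.15 in TAC. Of all genes, 68 passed in that fit. Quantile normalization left 0 of the 8 genes with a TAC course, with 399 of all genes in place of 652, and array weights gave 7, with 4969 of all genes. Without TAC ZT23 replicate 1 Sri had 0.104. Asph had 0.180 and 0.182 without TAC ZT11 replicate 2 or 3, and between 0.0502 and 0.0778 without SHAM ZT07 replicate 1, SHAM ZT15 replicate 2 or 3, SHAM ZT19 replicate 3, TAC ZT03 replicate 2, TAC ZT07 replicate 3, any TAC ZT19 array or TAC ZT23 replicate 2. Casq2 passed without SHAM ZT11 replicate 3, TAC ZT03 replicate 3, TAC ZT19 replicate 2 or TAC ZT23 replicate 3 (0.0301 to 0.0493).

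Myh7 itself had a TAC course at an adjusted p of 0.00261 in limma, so its part was set beside these courses. That test used 1 spread for both surgeries, with SDs of 0.12 in SHAM and 0.77 in TAC. The difference of the Myh7 course between the surgeries did not pass (adjusted p = 0.336). With the Myh7 value of the TAC arrays as a covariate, Sri had a course at an adjusted p of 0.0159 and Asph at 0.0819. With the same covariate the 24-h rhythm of Sri in TAC had an amplitude of 0.16 and passed (adjusted p = 9.1e-04). Of all genes, 330 then passed for the TAC course and 672 for the TAC rhythm.

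The probe sets of Sri and Asph differed in their daily values. In SHAM 0 of the 21 probe sets had a rhythm that passed in limma (4.44% of all probe sets did) and 0 of 21 a course (2.60%), with 4 and 3 at an unadjusted p under 0.05, against 16.8% and 11.5% of all probe sets. In TAC the unadjusted counts were 7 for the rhythm (18.7% of all probe sets) and 10 for the course (19.0%). In TAC, 1450878_at of Sri had a rhythm amplitude of 0.20 ± 0.049 with a peak at ZT20.5 (adjusted p = 0.0356; 3.87% of probe sets passed) and a course at an adjusted p of 0.00693 (4.52% passed). The other probe set of Sri, 1423155_at, had 0.079 ± 0.044 (adjusted p = 0.508) and a course at 0.205. For Asph, 1425274_at peaked at ZT22.2 with 0.23 ± 0.053 (adjusted p = 0.0260), and 3 of its 5 probe sets changed over the TAC times. These were 1425274_at (adjusted p = 0.0471), 1425275_at (0.0497) and 1450058_at (0.0378). Their courses were not alike: 1425274_at and 1425275_at were lowest at ZT11 (-0.32 and -0.33), whereas 1450058_at was lowest at ZT23 (-0.21) and highest at ZT15 (0.11). Over the 36 arrays the pairwise correlation between Asph probe sets ran from -0.16 to 0.88.

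**Figure D3:**
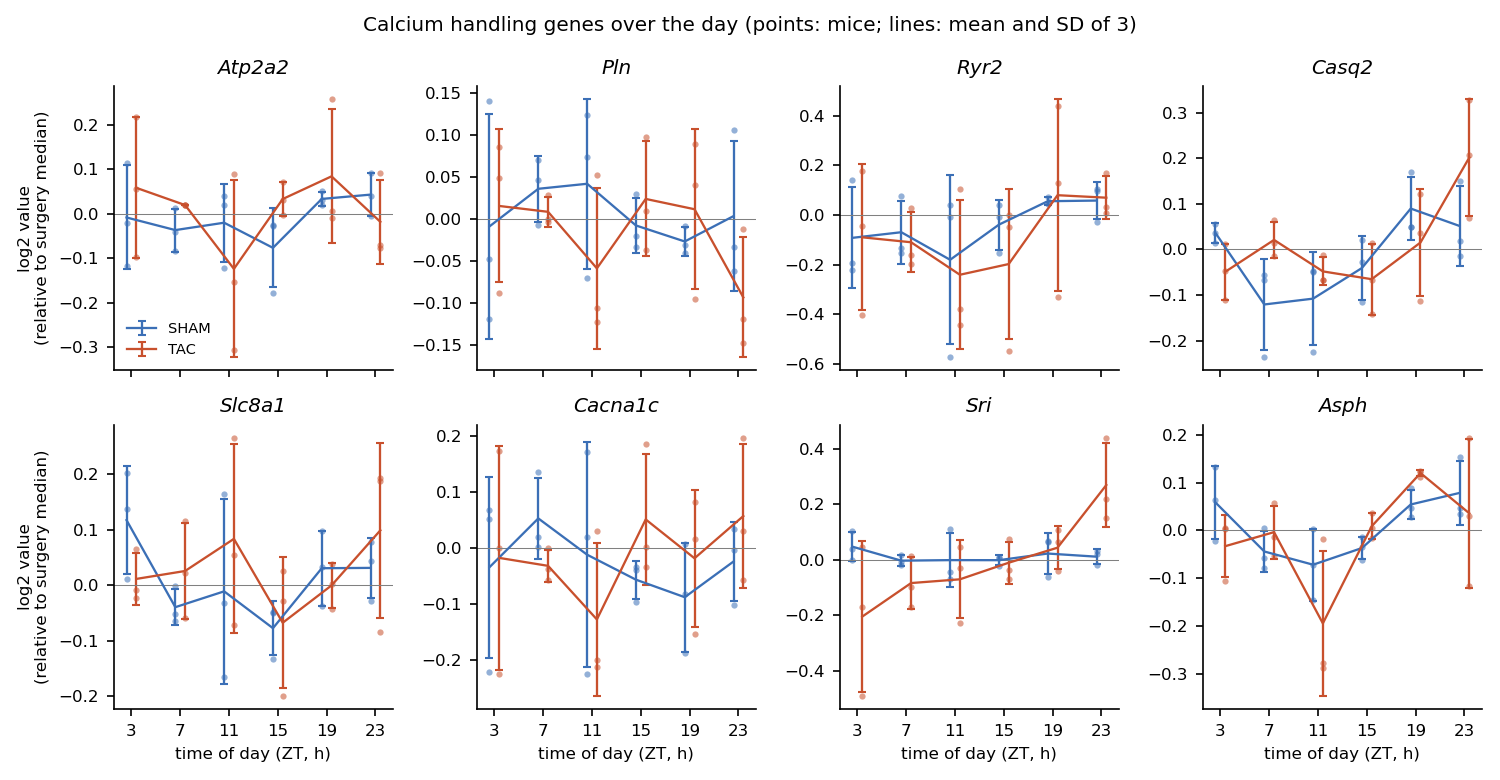
Log2 values of each gene (vertical axes, each with its own range, relative to the median of the surgery) at the 6 times of day (horizontal axes, ZT in h), with points for single mice and lines and bars for the mean and SD of 3 mice, SHAM in blue and TAC in red. Sri climbs from -0.21 at ZT03 to 0.27 at ZT23 in TAC and stays between -0.0036 and 0.047 in SHAM, and Asph dips to -0.19 at TAC ZT11. The line of Sri is the mean of 2 probe sets, which correlated at -0.31 in SHAM.

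The spread between mice of 1 group was larger in TAC than in SHAM for 7 of the 8 genes, against 71.9% of all genes, but it passed the test for 0 of 8 (1.61% of all genes; 2 of 8 had an unadjusted p under 0.05 in limma, against 18.9%). The median log2 ratio of the SD, TAC over SHAM, was 0.48 for the 8 genes and 0.29 for all genes. Sri, averaged over its probe sets, had a ratio of 1.42 on the log2 scale, from an SD of 0.056 in SHAM to 0.15 in TAC (adjusted p = 0.0746). Its probe sets alone had smaller ratios, 1.08 for 1423155_at (SD 0.077 and 0.16) and 0.64 for 1450878_at (SD 0.10 and 0.16). They correlated at -0.31 in SHAM and 0.83 in TAC, and in SHAM their mean varied less than either of them. The ratio of 1450123_at of Ryr2 was 1.15 (SD 0.10 and 0.22). Ryr2 had an SD of 0.18 in SHAM and 0.27 in TAC (adjusted p = 0.257), Atp2a2 0.076 and 0.13 (adjusted p = 0.426), and Asph 0.057 and 0.096 (adjusted p = 0.508). Pln, with 0.081 and 0.079, was the only gene of the 8 with a smaller SD in TAC. For Myh7 the SD was 0.12 and 0.77 (adjusted p = 0.00304).

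Sri passed without SHAM ZT11 replicate 3, TAC ZT03 replicate 1, TAC ZT03 replicate 3, TAC ZT07 replicate 3 or TAC ZT15 replicate 1 (adjusted p from 0.0319 to 0.0499), and Ryr2 without SHAM ZT11 replicate 3 (0.0498). A test on the log2 SD of the 12 groups gave 0 of the 8 genes, with Sri at an adjusted p of 0.384 and 0.0161% of all genes passing; 1 of 8 had an unadjusted p under 0.05 in limma, against 8.31%.

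**Figure D4:**
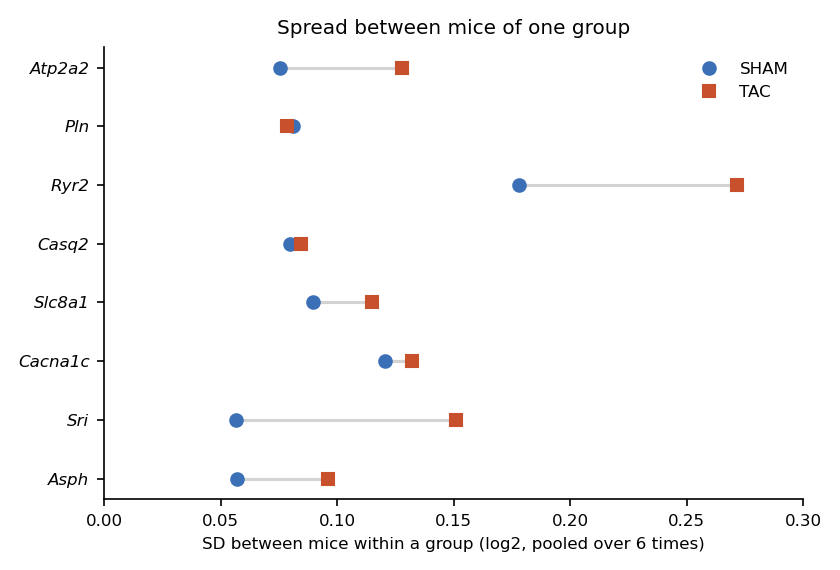
SD between mice of a group, pooled over the 6 times (horizontal axis, log2), for each gene in SHAM (blue circles) and TAC (red squares). Sri moves from 0.056 to 0.15 and Ryr2 from 0.18 to 0.27, while the points of Pln and Casq2 nearly coincide.

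Between each other, the 8 genes were positively correlated in 23 of 28 pairs over the SHAM arrays (median r = 0.42) and in 17 of 28 over the TAC arrays (median r = 0.16). The median r of these genes with all other genes was 0.02 in SHAM and -0.03 in TAC, and 52.4% and 46.8% of those pairs were positive. On SHAM ZT11 replicate 3, the array with the thymocyte markers, 7 of the 8 genes lay below 0, and the thymocyte mean correlated with Ryr2 at -0.79, Asph at -0.51 and Casq2 at -0.50 over the SHAM arrays. Without that array 24 of 28 SHAM pairs were positive (median r = 0.34, n = 17), and without TAC ZT23 replicate 1 there were 16 TAC pairs (median r = 0.18, n = 17). The correlations are descriptions over 18 arrays that share their RNA, and the difference between the surgeries was not tested. Atp2a2 and Pln, the pump and its inhibitor, had r = 0.61 in both surgeries, and Atp2a2 and Ryr2, the uptake pump and the release channel, had 0.77 in SHAM and 0.60 in TAC. Casq2 and Asph, both of the calsequestrin complex, had 0.81 in SHAM and 0.07 in TAC (0.75 and 0.28 without those arrays). Casq2 and Sri had 0.12 in SHAM and 0.78 in TAC (0.46 and 0.64 without them). The mean of Sri averages 2 probe sets that correlated at -0.31 in SHAM and 0.83 in TAC. Atp2a2 and Slc8a1, which share the removal of calcium after a beat, had 0.47 in SHAM and -0.51 in TAC, and Atp2a2 and Casq2 had 0.50 and -0.36.

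**Figure D5:**
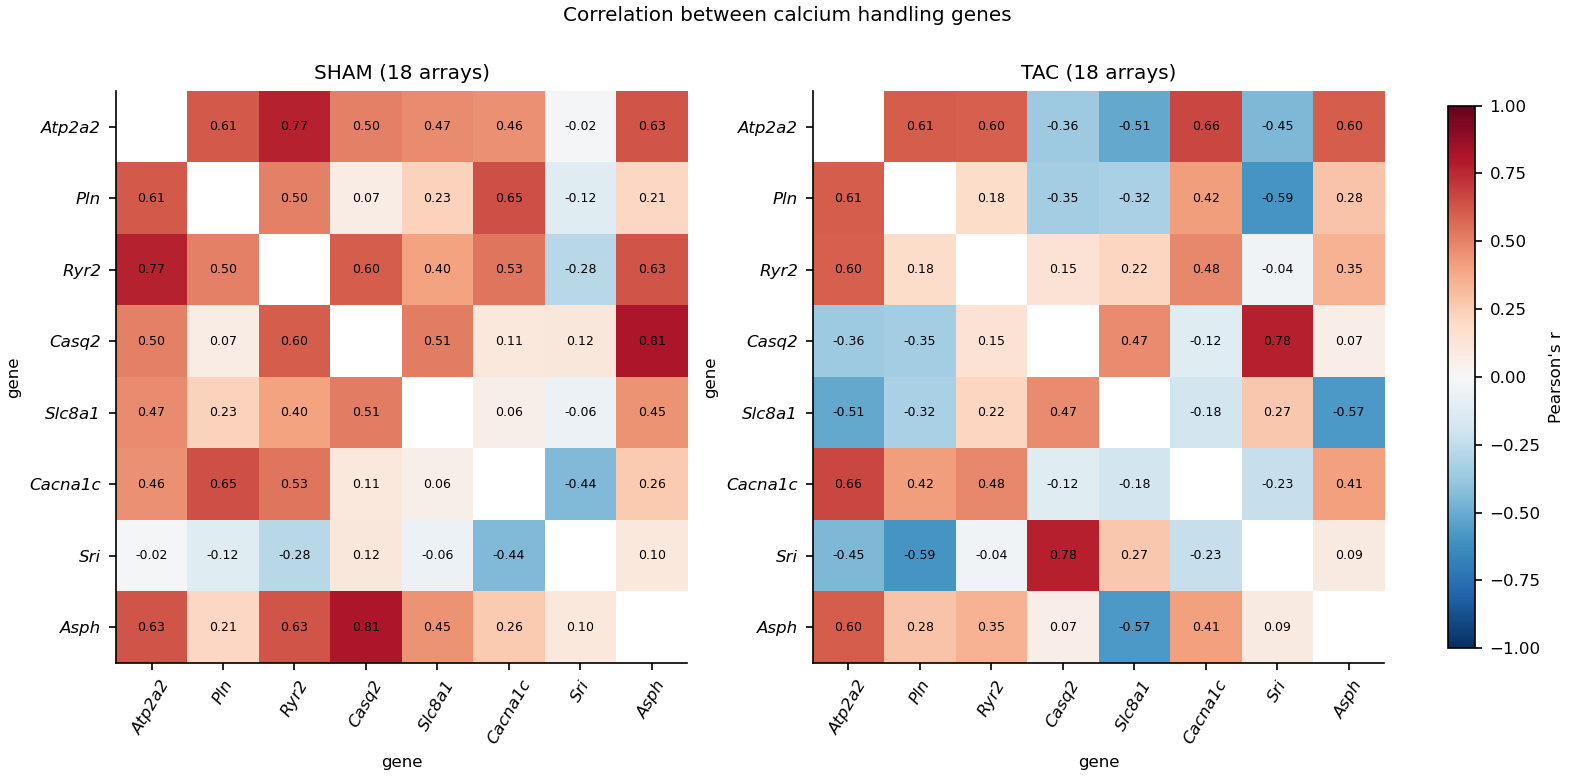
Pearson's r between each pair of the 8 genes over the 18 SHAM arrays (left) and the 18 TAC arrays (right), from -1 (blue) to 1 (red), with genes on both axes. Most SHAM cells are red, with Casq2 and Asph at 0.81, and in TAC the cells of Atp2a2 with Casq2, Slc8a1 and Sri are blue.

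The genes whose values were most like those of each member over the 36 arrays are named as a description of likeness. For Atp2a2 they were Rnf123 (r = 0.83), Cox7a1 (r = 0.80) and Oma1 (r = 0.80), both Cox7a1 and Oma1 encoding mitochondrial proteins. For Pln they were Sucla2 (r = 0.78), Prkag1 (r = 0.77) and Pdha1 (r = 0.75), of which Sucla2 and Pdha1 encode mitochondrial enzyme subunits and Prkag1 a subunit of the AMP-activated kinase. For Ryr2 they were Kcnk3 (r = 0.81), Egln1 (r = 0.77) and Kpna6 (r = 0.77). For Casq2 they were Hacd1 (r = 0.79), Egln3 (r = 0.73) and Clic4 (r = 0.73).

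Sri was most like Tgfbr2, a receptor of TGF beta (r = 0.83), Lrp1 (r = 0.80) and Pfkp (r = 0.80). This likeness lay in the TAC arrays, where r was 0.87, 0.86 and 0.87, against 0.41, 0.25 and -0.12 in SHAM. The value of Sri is the mean of 2 probe sets that correlated at -0.31 in SHAM and 0.83 in TAC, which limits what its SHAM correlations can show. Slc8a1 was most like Kif3b (r = 0.73), Qsox1 (r = 0.71) and Slc6a3 (r = 0.70). Cacna1c was most like Acat1 (r = 0.72), Marchf6 (r = 0.70) and Coro6 (r = 0.67), and Asph most like Dedd (r = 0.83), Ice1 (r = 0.80) and Immp1l (r = 0.78).

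Other genes of the same machinery were followed in lists by role. These lists too were chosen with earlier results of these data known, so their counts are descriptions and no list was tested. Of 13 measured genes of the junction and the store, 2 had a negative slope on Myh7 in TAC that passed and 0 a positive one. Of all genes, 3.01% and 3.41% did. Hrc, which encodes a calcium-binding protein of the store, had -0.21 ± 0.029 (SE, n = 18; adjusted p = 8.5e-05), and Trdn, which encodes triadin, the partner of junctin at the release channel, had -0.12 ± 0.026 (adjusted p = 0.00656). Trdn also passed within times (-0.20, adjusted p = 0.00837), and Hrc had -0.20 there (adjusted p = 0.0572). In this list Hrc changed over the TAC times (adjusted p = 0.0254), Calr, calreticulin, had a rhythm in SHAM (amplitude 0.15, adjusted p = 0.0214), and Fkbp1b, the ryanodine receptor stabiliser, was more variable in TAC by the spread test (adjusted p = 0.0482) but did not pass the test on the log2 SD of groups (adjusted p = 0.488). Of all genes, 5.26% passed for a TAC course, 5.58% for a SHAM rhythm, 1.61% for the spread and 1.42% for a within-time slope. All 13 had a larger SD in TAC than in SHAM, against 71.9% of all genes.

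Of 3 measured SR pumps and small regulators, 1 had a slope that passed, against 6.42% of all genes. It was Sln, which encodes sarcolipin, an inhibitor of the pump that is abundant in atria. The slope of Sln was -0.36 ± 0.092 (adjusted p = 0.0227), and it changed over the TAC times (adjusted p = 4.9e-04), as did 5.26% of all genes. Sln is also 1 of the 6 atrial markers and so enters their mean, which correlated with Myh7 at -0.59. Nppa, another of these markers, had a positive slope (0.20, adjusted p = 0.00147 in limma). The within-time slope of Sln was -0.064 (adjusted p = 0.896). Of 12 sarcolemmal channels, exchangers and pumps, 1 passed, against 6.42% of all genes. It was Cacna1s (-0.071 ± 0.019, adjusted p = 0.0321), a calcium channel gene best known from skeletal muscle.

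Of 12 kinases, phosphatases and calcium sensors, 1 passed in each direction, against 3.41% positive and 3.01% negative of all genes. Prkar1a, the regulatory subunit of the cyclic AMP-dependent kinase that phosphorylates phospholamban, had 0.25 ± 0.021 (adjusted p = 3.6e-07), passed within times (0.21, adjusted p = 0.00230), changed over the TAC times (adjusted p = 6.8e-04) and was more variable in TAC by the spread test (adjusted p = 0.0475), though not by that on the log2 SD of groups (adjusted p = 0.413). Phkg1, a phosphorylase kinase subunit, had -0.095 ± 0.021 (adjusted p = 0.00718). Shares of all genes were 1.42% for the within-time slope, 5.26% for the TAC course and 1.61% for the spread test. Of 7 genes of the filament response to calcium, 1 passed, against 6.42% of all genes. It was Tnni3, cardiac troponin I (-0.070 ± 0.014, adjusted p = 0.00346), which is also a cardiomyocyte marker here. Among the same markers, Tnnt2 (0.011), Tnnc1 (0.013) and Mybpc3 (0.028) had positive slopes. Those of Myl2 (-0.023), Myl3 (-0.034) and Myh6 (-0.052) were negative, and none of these passed. None of 4 genes of IP3 receptors and store-operated entry passed (Orai1 0.027, adjusted p = 0.342, and Stim1 0.016, adjusted p = 0.671). None of 4 of mitochondrial calcium uptake passed either (Vdac1 -0.040, adjusted p = 0.105, and Slc8b1 0.026, adjusted p = 0.542), against 6.42% of all genes.

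Of the 6 measured genes of the load programme, 5 had a positive slope on Myh7 that passed and 0 a negative one. The shares of all genes were 3.41% and 3.01%, and the list median was 0.23. This list was chosen with earlier results of these data known, so the count is a description. The genes that passed were Ccn2 (0.55 ± 0.10, adjusted p = 0.00227), Ankrd1 (0.27 ± 0.027, adjusted p = 2.8e-06), Nppb (0.24 ± 0.070, adjusted p = 0.0456), Acta1 (0.22 ± 0.061, adjusted p = 0.0360) and Nppa, also an atrial marker here (0.20 ± 0.036, adjusted p = 0.00147). Myh6, the alpha myosin heavy chain, had -0.052 ± 0.038 (adjusted p = 0.478). The largest slope among the 8 calcium handling genes, that of Sri, was 0.12.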

How the data were processed

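Per the labels' protocols, ventricles were frozen, Trizol was used to isolate RNA, and 6 ug of it gave biotinylated cRNA for Affymetrix arrays. The deposited table holds log2 values of 22690 probe sets, centred by surgery; how the authors summarised and normalized the probes, and the log base, is not given in the sources used here. Of these, 20393 had 1 symbol (13 controls left out), 691 several and 1606 none; 20351 of 20380 Entrez identifiers matched and 0 symbols changed. Probe sets of a gene were averaged (12393 genes).

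The members and gene lists were chosen with earlier results of these data known. limma 3.58.1 (R 4.3.3) fitted, with Benjamini-Hochberg adjustment over all genes, a 24-h curve per surgery, 12 group means, a slope on Myh7 and a Levene-type comparison of spread; the last made too many calls on simulated data, so the log2 SD of the groups was added. Correlations had 100000 permutations. Named genes were the members, Myh7, the 3 genes most like each member (clone-like symbols skipped), of each pathway list those passing or the 2 with the smallest slope p, and the load genes. Alternatives were another normalization, array weights, probe set rules, covariates and arrays left out. No 2 arrays held identical values. Figures used matplotlib 3.10.9.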

Additional observations from a re-analysis of the deposited data

How the results depend on the processing

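The 4 alternatives added after seeing the data were the test on the log2 SD of groups, Myh7 as a covariate of the daily tests, the correlations between the 8 genes without the thymus and airway arrays, and the marker means other than cardiomyocyte, atrial and fibroblast as covariates of the slope. The cause of each shift below was not tested. Over the arrays, deviations of those sharing a replicate number had a median r of 0.035 (198 pairs), against -0.013 for different numbers (396 pairs). Whether single genes differ by replicate number was not tested, and a median r cannot show it. In SHAM, Atp2a2 was lowest in replicate 3 at every time but ZT19, whereas Sri was lowest there only at ZT07 and ZT19. The replicate block gave 1 member with a TAC course in place of 2, and 3 with a slope on Myh7 in place of 4 (734 genes against 796).

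The count of members with a SHAM rhythm was 0 (692 of all genes), and 1 with quantile normalization (1423 genes), array weights (1976) or atrial and adipocyte covariates (511) and 2 in the SHAM arrays alone (1166). The count with a TAC rhythm was 0 (539 genes), and 2 with the probe set of largest SD (551 genes) or each probe set (788 probe sets), and 1 without the thymus and airway arrays (673 genes) or with Myh7 as a covariate (672). Leaving out single arrays or replicate numbers gave 0 to 1 for both. The TAC course count of 2 became 0 with quantile normalization (399 genes) or the TAC arrays alone (68), 7 with array weights (4969 genes against 652), and 1 without the thymus and airway arrays or with Myh7 as a covariate; leaving out arrays gave 0 to 3. Array weights also gave 1 for the SHAM course (3619 genes against 418) and 5 for the difference of course (1730 genes against 2). The spread count of 0 became 1 with a trend and robust fitting, and 0 to 2 without single arrays.

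The slope count of 4 became 0 with quantile normalization (265 genes against 796), with times as a factor (176 genes; 153 with the replicate block too) and with macrophage (738 genes) or airway means (418). It was also 0 with fibroblast or activated fibroblast means, where 0 of all genes passed in limma and 522 and 752 had an unadjusted p under 0.05, against 2508 without them. It was 1 with cardiomyocyte means (642 genes), without the thymus and airway arrays (554) or by permutation of rho (486), and 2 with atrial (503) or smooth muscle means (682) or the probe set of largest SD (738); leaving out arrays gave 0 to 4. The call held in 31 of 45 alternatives for Atp2a2, 24 of 44 for Pln, 23 of 45 for Sri and 15 of 45 for Casq2. These alternatives are not separate: 18 of them left out 1 TAC array. The fit without the thymus and airway arrays equals that without TAC ZT23 replicate 1, since the slope uses TAC arrays only.

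Slopes turned sign as follows. With activated fibroblast means they were 0.0015 (Atp2a2), 0.058 (Pln), 0.22 (Ryr2), 0.047 (Cacna1c) and 0.090 (Asph), and with fibroblast means 0.0031 (Pln), 0.12 (Ryr2), 0.073 (Cacna1c) and 0.032 (Asph). These 2 means correlated with Myh7 at r = 0.94 and 0.90, so such slopes are poorly separated from the covariate. With cardiomyocyte means Ryr2 was at 0.086 and Asph at 0.0064, with macrophage means Ryr2 at 0.013, and with its most variable probe set Ryr2 at 0.10. Leaving out arrays took Ryr2 from -0.10 to 0.062. The log2 ratio of spread was -0.070 (Cacna1c) and -0.12 (Casq2) with quantile normalization, 0.32 (Pln) by probe set and 0.11 (Pln) without the thymus and airway arrays. In the log2 SD test it was -0.54 (Atp2a2), -0.0020 (Casq2) and 0.24 (Pln). Leaving out arrays took Pln from -0.26 to 0.29, Casq2 from -0.35 to 0.33, Cacna1c from -0.34 to 0.47 and Asph from -0.20 to 1.03. Signal over background was not analysed here, since centring removed levels. Array weights were not run for the spread, and Pln has no value in the fit without genes of low SD, which removes it.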
